A study of Arabidopsis thaliana with 156 samples.

Results

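The plastid genome of Arabidopsis thaliana carries a small set of genes for the photosynthetic machinery, and their array signal is described here over shoot apices, leaf primordia and leaves. A probe set was a member if it matched a single gene whose symbol begins with psa, psb, pet, ndh or atp in lower case, or is rbcL. The rule found 43 probe sets among the 19324 on the array, each of them for a different gene. Of these genes 15 code for photosystem II, 6 for the cytochrome b6f complex, 5 for photosystem I, 6 for the ATP synthase, 10 for the NDH complex and 1, rbcL, for Rubisco. By their annotation all 43 lie in the plastid genome, from which 69 probe sets in all matched a single gene. The gene ndhB is no member, because its probe set matched several genes.

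These complexes lie in the thylakoid membrane of the chloroplast, except Rubisco, which fixes carbon dioxide in the stroma. Photosystem II takes electrons from water, the cytochrome b6f complex passes them on to photosystem I, the NDH complex returns electrons from photosystem I to the chain, and the ATP synthase makes ATP with the proton gradient. Each complex also has subunits coded in the nucleus, so a plastid and a nuclear gene set must be expressed together, and most of the plastid genes are transcribed as units of several genes by a plastid and a nuclear polymerase.

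The study followed vegetative development in plants of the accession Col-0 into which the functional FRI gene of the accession Sf-2 had been introgressed. FRI;FLC plants carry functional FLC, a repressor of flowering, and stay vegetative for long. FRI;flc-3 plants carry the flc-3 allele and flower earlier. The line FRI;FLC;35S::miR156mimic expresses in addition a target mimic that lowers the activity of the microRNA miR156, from the 35S promoter, which is active in nearly all tissues. All groups thus share FRI and a day length of 16 h. The 156 arrays fall into 53 groups, of which 51 have 3 arrays. FRI;FLC accounts for 80 arrays, the flc-3 allele for 73 and the mimic for 3. With functional FLC, apices were taken at 4, 6, 9, 11, 14 and 21 days, with the flc-3 allele at 4, 6, 9 and 11 days, and in the mimic line at 6 days. At day 6 there were 2 arrays with functional FLC and 1 with flc-3. Primordia of leaves 1/2, 3, 5, 7, 9 and 11 came from plants between 6 and 18 days old, and fully expanded leaves of these positions from plants between 14 and 34 days old. Leaves 3, 5 and 7 were also taken past full expansion, at 32 or 33 days. With the flc-3 allele the eleventh leaf was cauline, on the flowering stem, and with functional FLC it was a rosette leaf. Primordia came from experiment 1, apices and leaves past full expansion from experiment 2, and expanded leaves from both.

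An array was hybridised with RNA of a pool of organs, with 24 to 120 apices to a pool, 30 primordia or 9 leaves, and 60 and 18 of these at leaves 1/2, so replicates are separate pools of organs. Values are the deposited log2 signals, and the median of an array lay between 6.40 and 6.92. Within groups, arrays correlated with a median r of 0.992 over all probe sets, and the lowest value, 0.954, was that of the 2 arrays of FRI;FLC apices at day 6. The RNA was polyA RNA, and how well its labelling measures plastid transcripts was not tested. Signals of different probe sets are not compared with each other, because each binds its transcript with its own strength. Markers of organs could be checked for 2 genes. CLV3, a gene of meristem stem cells, had a median log2 signal of 2.64 in apices, with a lowest value of 1.93. It read at most 1.74 on any primordium array and at most 2.44 on any expanded leaf array. On many arrays CLV3 was thus near the low end of the scale, where the 10th percentile of all values was 2.03. RCA, the Rubisco activase of green tissue, had medians of 11.91 in apices, 12.72 in primordia, 13.01 in expanded leaves and 12.72 in leaves past full expansion.

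The probe sets of ndhF and petG, with mean signals of 2.38 and 2.83, were close to the low end of the scale (its 10th percentile was 2.03). Over all 156 arrays psaA, for a core protein of photosystem I, had the widest range, from 3.87 to 10.81, followed by petN, ndhJ, petG, petD and ndhH with ranges between 5.87 and 6.36. The narrowest range, 0.99, was that of atpE, for the epsilon subunit of the ATP synthase, and psbC and psaB, for core proteins of the photosystems, stayed between 11.58 and 12.88 and between 11.68 and 13.00. Probe sets with weak signal had the wider ranges (Spearman's rho of range with mean signal -0.83 across the 43 genes, a description, since genes are not independent). Averaged over the 43 genes, an array had 9.19 in the median apex (from 8.51 to 10.55, 30 arrays), 9.41 in primordia (8.71 to 10.11, 36 arrays), 10.13 in expanded leaves (9.69 to 10.63, 72 arrays) and 9.84 in leaves past full expansion (9.32 to 10.47, 18 arrays). The organs overlap in this mean, and the expanded leaves are the highest at the median. Between apices (experiment 2) and primordia (experiment 1), organ and experiment cannot be told apart.

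**Figure D1:**
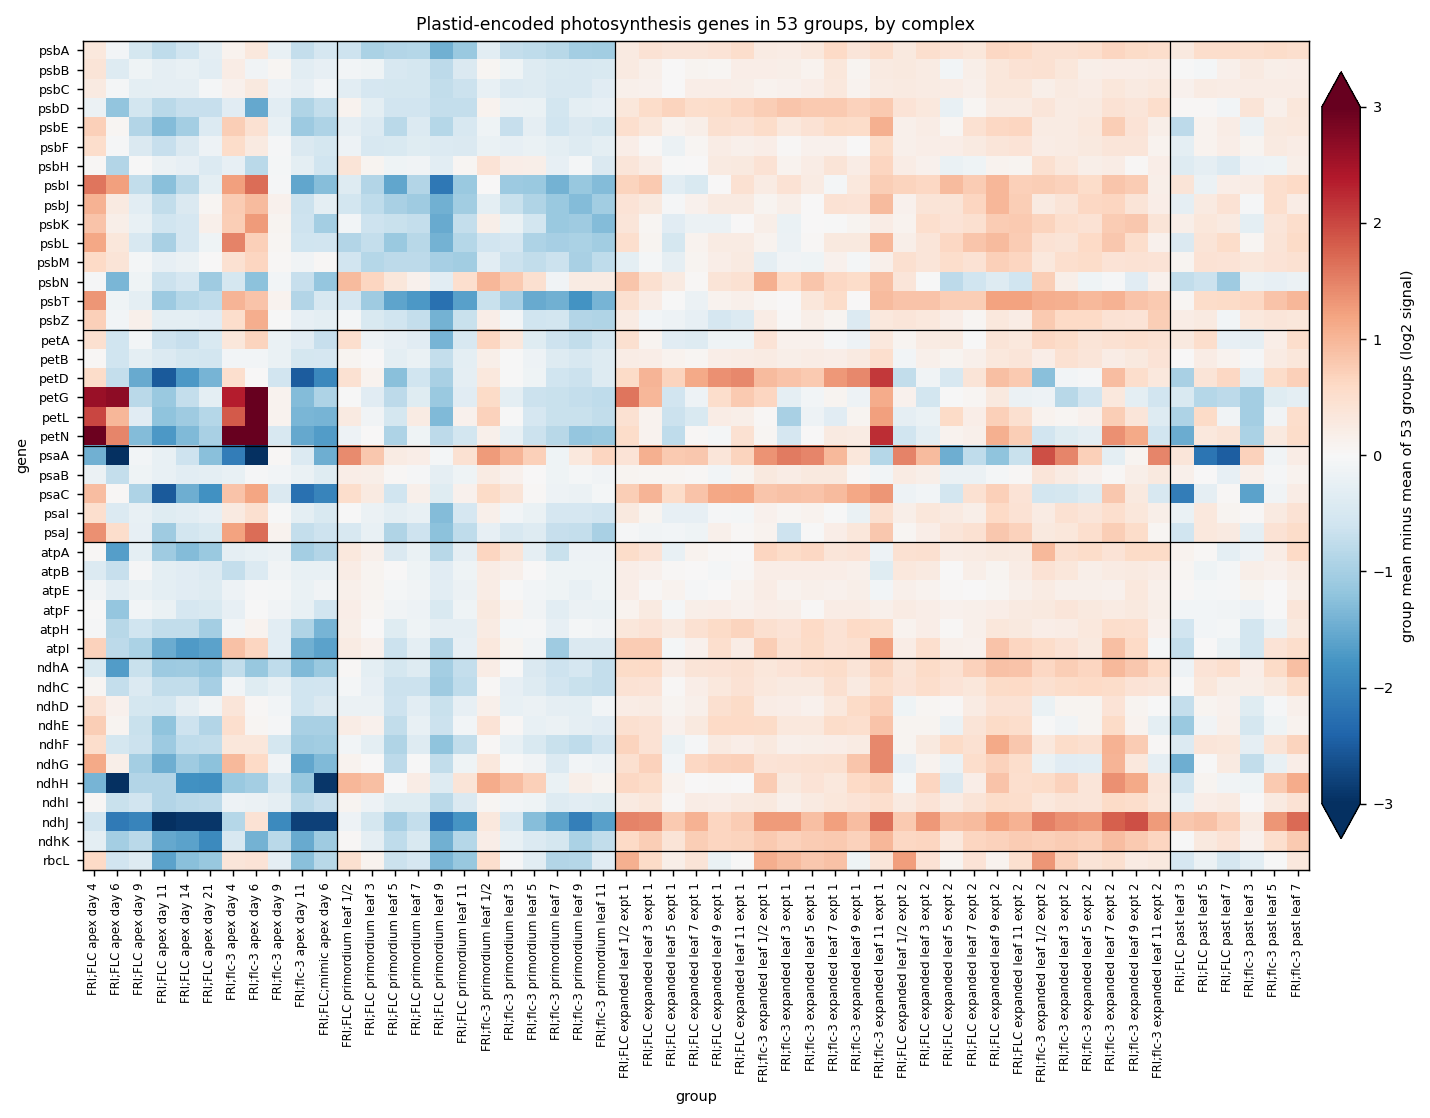
Log2 signal of the 43 genes (rows, ordered by complex) in the 53 groups (columns, ordered by organ, genotype and age or position), as the mean of a group minus the mean of all groups of that gene, with the colour limited at 3 in both directions. Apices older than day 4 and late primordia are mostly below the gene's mean, expanded leaves mostly above it, and psaA runs against its neighbours in young apices.

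In the apices of FRI;FLC plants the signal of the plastid genes was lower at day 9 than at day 4. Of the 43 genes 27 were lower and 2 higher at an adjusted p under 0.05 (limma, adjusted over all 19324 probe sets), against 23.5% lower and 25.1% higher of all probe sets. The median difference of the 43 was -0.74 on the log2 scale, with 39 genes below 0, and that of all probe sets was -0.01. With each array centred on its own median, the median over all probe sets was -0.24, and 3557 were called higher and 6948 lower in place of 4846 and 4538. Among the lower genes were 11 of the 15 photosystem II genes, 4 of the 6 cytochrome b6f genes, 3 of the 5 photosystem I genes, 6 of the 10 NDH genes, 2 of the 6 ATP synthase genes and rbcL. The lower genes numbered 15 without the arrays of replicate number 1 and 11 without those of number 3. In a sample of a whole organ, fewer cells of a type and less RNA in each cell cannot be told apart. Over the same days CLV3 fell by 1.74 and RCA rose by 0.67, and their part in these changes was not tested.

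Small subunits of the cytochrome b6f complex were among the genes with the largest falls, with petN and petG first and psbI of photosystem II level with petL. For petN, which codes for a subunit of a single membrane helix, the arrays read 9.16, 7.30 and 8.21 at day 4 and 4.44, 3.94 and 3.57 at day 9. The 2 days do not overlap, as was so for 33 of the 43 genes and 11291 of all 19324 probe sets. The difference of petN was -4.24 ± 0.63 (SE, 3 arrays a day, adjusted p = 9.8e-06), or 18.9-fold. For petG, another such subunit, the day 4 arrays read 6.43, 4.66 and 5.38 and the day 9 arrays 2.40, 1.80 and 2.11, so that day 9 lay at the low end of the scale (-3.39 ± 0.48, adjusted p = 6.2e-06). The related petL fell by 2.34 ± 0.45, from 8.38, 7.95 and 8.13 to 5.72, 5.62 and 6.09. In contrast petB, for cytochrome b6 itself, had a difference of -0.34 that was not called (adjusted p = 0.22).

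In photosystem II the small subunit gene psbI read 11.16, 10.31 and 10.87 at day 4 and 8.59, 8.57 and 8.15 at day 9, and fell by 2.34 ± 0.28 (adjusted p = 7.6e-07). For psbA, which codes for the D1 protein of the reaction centre, the arrays read 12.63, 12.02 and 12.41 at day 4 and 11.62, 11.67 and 11.22 at day 9, without overlap, and the gene fell by 0.85 ± 0.24 (adjusted p = 0.0057). That fall was not called without the arrays of replicate number 1 (-0.77, adjusted p = 0.060) or number 3 (-0.68, adjusted p = 0.067). The fall of psbC, for the core antenna protein CP43, was 0.56 ± 0.12 (adjusted p = 0.00076). Of the NDH genes ndhI, for an iron-sulphur subunit, fell by 0.60 ± 0.24 (adjusted p = 0.037) and ndhJ, for a subunit of the stromal arm, by 1.40 ± 0.42 (adjusted p = 0.0080). For rbcL, the large subunit of Rubisco, the day 4 arrays read 11.72, 11.10 and 11.11 and the day 9 arrays 10.39, 10.46 and 10.17 (-0.97 ± 0.28, adjusted p = 0.0068). Its call was lost without the arrays of replicate number 3 (-0.99, adjusted p = 0.074).

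Both genes that rose code for large core subunits. The signal of psaA was 7.54, 6.59 and 7.01 at day 4 and 8.96, 8.11 and 8.16 at day 9, again without overlap, a rise of 1.37 ± 0.41 (adjusted p = 0.0076). The signal of atpB, for the catalytic beta subunit of the ATP synthase, went from 12.15, 11.90 and 11.85 to 12.41, 12.26 and 12.38 (+0.38 ± 0.12, adjusted p = 0.0093). The rise of atpB was not called with each array centred on its median (+0.15, adjusted p = 0.29). It was also not called without the arrays of replicate number 3 (+0.31, adjusted p = 0.10). The neighbours of psaA and atpB in the same transcription units, psaB and atpE, had differences of 0.03 and -0.09 that were not called (adjusted p = 0.86 and 0.53). The size of the difference followed the length of the gene: the 18 genes of at most 300 bp, a limit chosen after the values were seen, had a median difference of -1.48 and the 25 longer ones of -0.51.

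Such a trend with length was also present in nuclear genes. There the slope on log10 gene length of an array's deviation from each gene's mean over all arrays lay between -1.56 and -1.01 on the 6 day 4 apex arrays and between -0.38 and 0.28 on those of day 9. With the trend of nuclear genes taken out of each array, 11 of the 43 genes were higher and 9 lower in FRI;FLC. The nuclear trend had to be extended below its own 1st percentile of length, 465 bp, for 21 members. Of the 22 members above that limit, 2 were higher and 6 lower with the trend taken out, against 2 and 11 in the deposited values. The fall of petN (-2.45, adjusted p = 4.4e-05), petG (-1.73), psbI (-0.68, adjusted p = 0.013) and rbcL (-0.76, adjusted p = 0.020) and the rises of psaA (+1.32) and atpB (+0.57) passed the test in that setting, and the differences of petL (-0.59, adjusted p = 0.14) and psbA (-0.47, adjusted p = 0.072) did not.

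**Figure D2:**
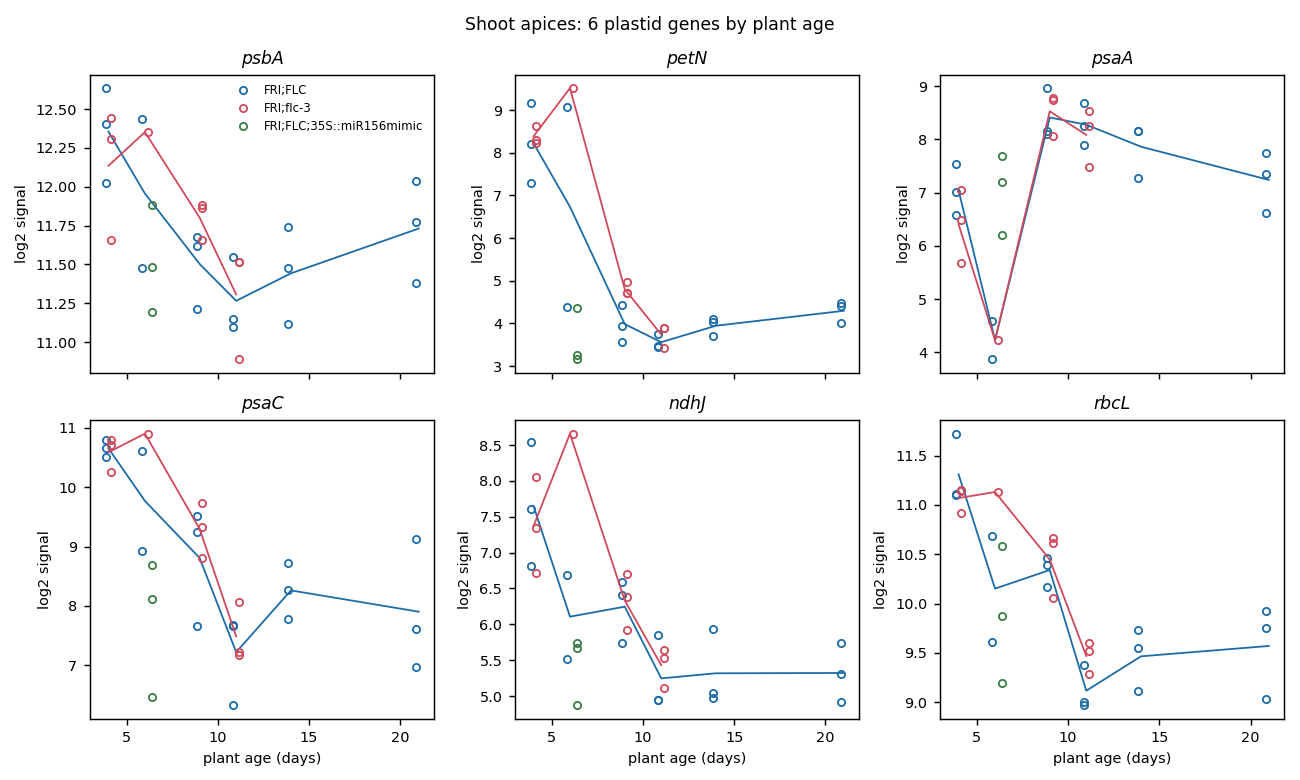
Log2 signal of psbA, petN, psaA, psaC, ndhJ and rbcL in shoot apices against plant age in days, with a point for each array, coloured by genotype, and lines through the group means (the mimic line has 1 age and no line). The signal of petN drops from 7.30 or more at day 4 to 4.97 or less at day 9 in both genotypes, psaA dips below 5 on the 3 arrays of day 6 without the mimic, and rbcL reads lower at day 11 than at day 9.

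The measured nuclear genes of the photosynthetic machinery went both ways over these days. Only part of each list of names could be matched to a probe set. It was 3 of 17 for the Calvin cycle, 2 of 14 for photosystem II and 2 of 19 for photosystem I. For the NDH complex it was 3 of 25 and for light harvesting 3 of 26, all LHCB4 genes. For plastid RNA processing it was 10 of 41. The 3 measured Calvin cycle genes, RCA, SBPASE (sedoheptulose-bisphosphatase) and PRK (phosphoribulokinase), all rose, by 0.67, 1.11 and 1.06. Of the 2 measured nuclear photosystem II genes PSBW fell by 0.47 and PSBY was not called, and of the 3 light-harvesting genes 0 were called. Of 20 plastid genes for the plastid's own polymerase, ribosome and splicing, 6 were higher and 3 lower, with a median of -0.06. Of 10 nuclear genes for factors that edit or process plastid transcripts 5 rose and 0 fell, CRR21 by 1.78 and CRR22 by 1.61 as the largest.

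In FRI;flc-3 apices 10 genes were lower and 2 higher at day 9 than at day 4, against 19.2% lower and 22.4% higher of all probe sets, so the lower share is near that of the array. The median difference was -0.45, while CLV3 fell by 2.40 and RCA rose by 0.77, and their part in these differences was not tested. Without the arrays of replicate number 1, 6 were lower. The signal of petN went from 8.29, 8.62 and 8.23 to 4.72, 4.72 and 4.97 (-3.58 ± 0.63, adjusted p = 8.1e-05) and that of petG from 4.67, 6.38 and 4.71 to 3.66, 2.38 and 2.97 (-2.25 ± 0.48, adjusted p = 0.00065). The day 4 and day 9 arrays of either gene do not overlap, as was so for 24 of the 43 genes and 9814 of all 19324 probe sets. The genes that rose were again psaA, from 6.49, 7.06 and 5.67 to 8.73, 8.78 and 8.06 (+2.12 ± 0.41, adjusted p = 0.00022), and atpB (+0.61 ± 0.12). The differences of rbcL (-0.62, adjusted p = 0.079) and psbA (-0.33, adjusted p = 0.27) were not called. With the nuclear length trend taken out, 15 genes were higher and 2 lower, petN (-1.94, adjusted p = 0.00068) among the lower.

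A test of the difference between the genotypes called none of these genes. For the change from day 4 to day 11, 0 of the 43 differed between FRI;flc-3 and FRI;FLC (limma, with 1 at an unadjusted p under 0.05, and 0.476% of all probe sets called). The mean difference between the genotypes over days 4, 9 and 11 was also called for 0 of the 43 (0 at an unadjusted p under 0.05), with 1.12% of all probe sets called and a median of 0.04 over the 43 genes.

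After day 9 fewer changes passed the test. In FRI;FLC 1 gene, ndhK for a subunit of the NDH stromal arm, was lower at day 14 than at day 9 (-0.80 ± 0.23, adjusted p = 0.027), with 4% of all probe sets lower and 4.24% higher. The call of ndhK was lost without the arrays of replicate number 1 (-0.97, adjusted p = 0.060), number 2 or number 3. Leaving out number 2 or number 3 left 0 lower genes. From day 14 to day 21, 0 of the 43 were called (limma, 1 at an unadjusted p under 0.05, with 15.1% of all probe sets called). Between days 9 and 11 all 43 genes had a negative difference in FRI;flc-3, with a median of -0.58, and 3 were called, against 3.21% lower and 1.97% higher among all probe sets. These were psbI (-1.52 ± 0.28, adjusted p = 0.0021), rbcL (-0.98 ± 0.28, adjusted p = 0.043) and psaC, for the iron-sulphur subunit of photosystem I (-1.81 ± 0.54, adjusted p = 0.049). The rbcL arrays read 10.06, 10.61 and 10.67 at day 9 and 9.60, 9.29 and 9.52 at day 11, and those of FRI;FLC at day 11 read 8.97, 9.00 and 9.38. Without the arrays of replicate number 1 or of number 3, 1 gene was called, and with the nuclear length trend taken out 0 were. The gene psaC was not called without number 1, 2 or 3 (adjusted p = 0.12, 0.11 and 0.20). The call of rbcL was lost without number 2 or 3 (adjusted p = 0.11 and 0.35) and that of psbI without number 1 (adjusted p = 0.052). Neither psaC nor rbcL was called with each array centred on its median or with a prior without trend.

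Day 6 brings in the mimic line. In it 8 genes were lower and 3 higher than in FRI;FLC of the same age, against 14.2% lower and 17.7% higher of all probe sets, and the median of the 43 was -0.35. The mimic arrays of petG read 1.91, 2.23 and 1.80 and the control arrays 6.76 and 4.40 (-3.60 ± 0.54, adjusted p = 1.6e-05). Those of petN read 3.16, 4.36 and 3.26 against 9.08 and 4.39 (-3.14 ± 0.70, adjusted p = 0.0013), so that the second control array is close to the mimic arrays. The genes psbI (-2.50 ± 0.32), petL (-2.39) and psaC (-2.02) were also lower in the mimic line. Those higher were psaA, atpF, for a stalk subunit of the ATP synthase (+0.58 ± 0.15, adjusted p = 0.0056), and atpB (+0.46 ± 0.13, adjusted p = 0.010).

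The comparison for psaA turned on its low signal in the controls of that day. The mimic arrays read 6.21, 7.20 and 7.68 and the 2 controls 3.87 and 4.59 (+2.80 ± 0.45, adjusted p = 4.6e-05), while the single FRI;flc-3 array of day 6 read 4.23. Every other apex array read 5.67 or more, so these 3 arrays are the lowest. Against the mean of the FRI;FLC arrays of days 4 and 9, psaA stood at -0.70 in the mimic line (adjusted p = 0.16), and atpF was lower, at -0.53 (adjusted p = 0.0028). The 2 control arrays also differ from each other: without the first, 2 genes were lower, and without the second 17 were. With the nuclear length trend taken out 14 genes were higher and 3 lower. CLV3 was 1.80 lower and RCA 1.05 higher in the mimic line, their part in these differences was not tested, and for rbcL (-0.27, adjusted p = 0.55) and psbA (-0.44, adjusted p = 0.23) no difference was called.

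**Figure D3:**
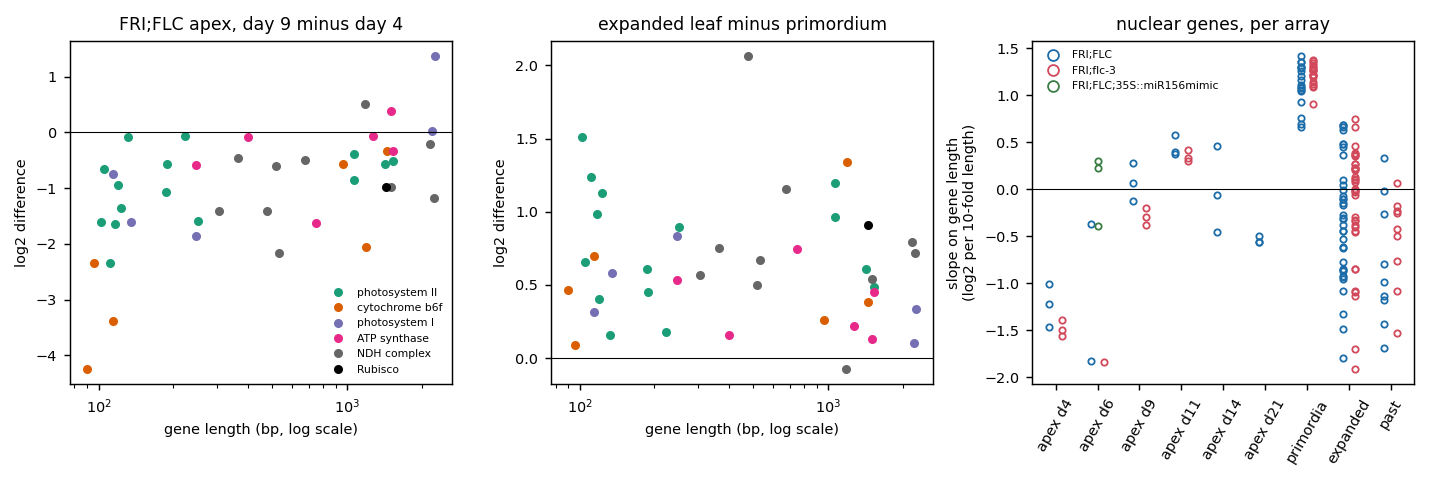
Log2 difference of the 43 genes against gene length in bp on a log axis, for apices from day 4 to day 9 in FRI;FLC and for primordia to expanded leaves, and, for each array, the slope on log10 length of its deviations from the mean of each nuclear gene, by organ. In apices the short genes lie lowest, with a median of -1.48 for those of at most 300 bp. The slopes of day 4 apices (experiment 2), all at -1.01 or below, lie below those of primordia (experiment 1), all at 0.66 or above.

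In primordia the signal fell from leaves 1/2 to leaf 11. Leaves 1/2 came from plants 6 days old and leaf 11 from plants 18 days old, so position and plant age cannot be told apart. In FRI;FLC 21 genes were lower in primordia of leaf 11 than in those of leaves 1/2 and 0 were higher, against 21.2% lower and 23% higher of all probe sets, with a median of -0.48. Without the arrays of replicate number 3, 9 were lower. In FRI;flc-3 29 were lower and 0 higher, against 12.2% lower and 14.3% higher, with a median of -0.72. All complexes took part in FRI;flc-3, with 8 of 15 photosystem II genes, 5 of 6 cytochrome b6f genes, 3 of 5 photosystem I genes, 4 of 6 ATP synthase genes and 8 of 10 NDH genes lower. The mean over the 43 genes did not fall evenly. From leaves 1/2 to leaf 11 it was 9.86, 9.63, 9.22, 9.41, 8.85 and 9.32 with functional FLC, and 10.01, 9.69, 9.48, 9.22, 9.24 and 9.27 with the flc-3 allele. These counts were 30 and 29 lower, and 0 higher, with the nuclear length trend taken out.

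The largest falls were those of rbcL and ndhJ in FRI;FLC and those of ndhJ and psbK in FRI;flc-3. With functional FLC the rbcL arrays read 11.39, 11.18 and 10.99 in leaves 1/2 and 9.59, 9.65 and 9.46 in leaf 11, a fall of 1.62 ± 0.16 (adjusted p = 1.5e-10). In FRI;flc-3 they read 11.24, 11.25 and 11.17 and then 10.40, 10.26 and 10.50, a fall of 0.83 ± 0.16 (adjusted p = 0.00010). The genotypes overlap at leaves 1/2 and not at leaf 11, where all FRI;flc-3 arrays are higher.

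That difference between the genotypes passed its own test, with a change 0.785 ± 0.23 less negative in FRI;flc-3 (interaction term, adjusted p = 0.012), and 11.1% of all probe sets had a positive and 8.46% a negative interaction. Primordia of leaf 9 read 9.63, 9.09 and 9.32 with functional FLC and 9.73, 9.96 and 9.90 with the flc-3 allele, without overlap. At leaf 5 the mean of rbcL was also higher in FRI;flc-3, at 10.39 against 10.08. At leaves 3 and 7 it was lower in FRI;flc-3, at 10.69 against 10.83 and at 9.83 against 10.21. The interaction was no longer called without the arrays of replicate number 1 (0.70, adjusted p = 0.089) or number 3 (0.75, adjusted p = 0.093). Leaf 11 becomes a cauline leaf in FRI;flc-3 and a rosette leaf in FRI;FLC, so genotype and leaf type cannot be told apart at that position.

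The ndhJ arrays of FRI;FLC read 7.74, 8.13 and 8.35 in leaves 1/2 and 6.55, 6.47 and 6.35 in leaf 11 (-1.61 ± 0.20), and those of FRI;flc-3 read 8.85, 8.41 and 8.41 and then 6.45, 6.97 and 6.39 (-1.95 ± 0.20, adjusted p = 8.2e-10). Neither pair overlaps. Further large falls were those of psbT, a small subunit of photosystem II, in FRI;FLC (-1.14 ± 0.30) and of psbK, another, in FRI;flc-3, from 11.28, 11.06 and 11.04 to 9.25, 9.66 and 9.98 (-1.49 ± 0.26). In FRI;flc-3 petL fell by 1.44, and psbA fell in both genotypes, by 0.49 (adjusted p = 0.014) and 0.72 (adjusted p = 0.00085). The difference of psbC, by contrast, was -0.12 in FRI;flc-3 and not called.

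Besides rbcL, petG was the only member with a called interaction of position and genotype (-1.01 ± 0.34, adjusted p = 0.034). Its arrays read 3.30, 2.79 and 2.60 in leaves 1/2 and 2.97, 2.64 and 2.07 in leaf 11 of FRI;FLC, and 3.27, 3.87 and 3.33 and then 1.95, 2.33 and 2.14 in FRI;flc-3. These are weak signals near the low end of the scale, and with the nuclear length trend taken out the interaction was -0.72 (adjusted p = 0.14). It was also not called without the arrays of replicate number 1 (-1.02, adjusted p = 0.066) or number 2 (-0.83, adjusted p = 0.20). The related genes petL (-1.29, adjusted p = 0.088) and petN (-0.87, adjusted p = 0.070) had interactions of the same sign that were not called.

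The measured nuclear photosynthesis genes, few of those listed, were lower in late primordia in part. In FRI;flc-3 the 3 Calvin cycle genes fell between 0.39 and 0.65, the 3 measured nuclear NDH genes NdhL, NdhN and NdhS between 0.51 and 0.58, and PSBW and PSBY by 0.52 and 0.29. There 1 of 2 photosystem I genes and 1 of 3 light-harvesting genes were lower, and PGRL1B and both ATP synthase genes were not called. In FRI;FLC the ATP synthase gene ATPC2 was higher, by 0.59, and ATPC1 lower, at -0.50. In FRI;flc-3, of the 20 plastid genes of the expression machinery 13 were lower and 0 higher, with a median of -0.53, and the largest fall among other plastid genes was that of accD, for a subunit of acetyl-CoA carboxylase, by 1.54.

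Between the genotypes few members differed in primordia. Over all 6 positions 6 were called higher and 0 lower in FRI;flc-3, against 11% higher and 10.3% lower of all probe sets, so the higher share is near that of the array. The median difference was +0.12, with 40 of 43 above 0. They were psbD for the D2 protein (+0.23), ndhD (+0.22), psbA (+0.20), rbcL (+0.19), psbC (+0.16) and psbF for cytochrome b559 (+0.12). The arrays of the 2 genotypes were without overlap over all positions in 0 members and in 15 of all 19324 probe sets. Without the arrays of replicate number 2 or number 3, 3 and 2 genes were higher. With each array centred on its median 2 were, with a prior without trend 3, and with the nuclear length trend taken out 15.

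Nearly all of the plastid genes were higher in expanded leaves than in primordia. Over leaves 1/2 to 9 of both genotypes, 40 of the 43 genes were higher in expanded leaves (30 arrays) than in primordia (30 arrays) of experiment 1 and 0 were lower, against 42.7% higher and 45.2% lower of all probe sets. Their median difference was +0.58 against -0.02 over all probe sets. All ATP synthase and photosystem I genes, 14 of 15 photosystem II genes, 5 of 6 cytochrome b6f genes, 9 of 10 NDH genes and rbcL were higher. The 3 not called were petL (+0.09), ndhH (-0.07) and psbN, for an assembly factor of photosystem II (+0.16).

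The NDH gene ndhJ rose most. Its signal had a lowest, median and highest value of 5.90, 7.18 and 8.85 over the 36 primordium arrays and of 8.38, 9.45 and 10.95 over the 72 expanded leaf arrays of both experiments, with a small overlap. The rise was 2.06 ± 0.07 (adjusted p = 6.7e-34), or 4.18-fold. Next came psbT (+1.51 ± 0.11), petD, for subunit IV of the cytochrome b6f complex (+1.34 ± 0.10), psbI (+1.24) and psbA (+1.20 ± 0.05). In the arrays compared psbA was the only member without overlap, against 5604 of all 19324 probe sets, and over all arrays it read 10.42, 11.15 and 11.75 at the lowest, median and highest in primordia and 11.95, 12.49 and 12.84 in expanded leaves. The rise of rbcL was 0.91 ± 0.06, that of psbC 0.61, of ndhI 0.50, of petB 0.39, of atpE 0.16 and of psaB 0.10 ± 0.04 (adjusted p = 0.0087).

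Here gene length bears on short and long members differently. The slope on log10 length over nuclear genes lay between 0.66 and 1.42 on the primordium arrays and between -1.91 and 0.75 on those of expanded leaves. With that trend taken out 16 members were higher and 20 lower. Of the 22 members of at least 465 bp, 16 were higher and 2 lower, and of the 21 shorter ones, for which the trend is extrapolated, 0 were higher and 18 lower. In that setting ndhJ (+1.31), psbA (+0.86) and rbcL (+0.74) were still higher, and psbT was at -0.06.

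Plastid genes for gene expression went the other way. Of the 20 genes for polymerase, ribosome and splicing 16 were lower in expanded leaves and 2 higher, with a median of -0.55. Among them rpoB, rpoC1 and rpoC2, for subunits of the plastid polymerase, fell by 1.64, 0.85 and 0.99. Of 6 further plastid genes 4 were higher and 2 lower. Of the 10 nuclear factors of plastid RNA processing 9 fell and 0 rose, with a median of -0.98. Of the measured nuclear genes, 2 of 2 rose for each photosystem, as did 3 of 3 for the NDH complex with a median of +1.05, 3 of 3 light-harvesting genes, 3 of 3 Calvin cycle genes and PGRL1B of cyclic electron flow (+1.41). Of the 2 for the ATP synthase gamma subunit, ATPC1 rose by 0.38 and ATPC2 fell by 1.71. RCA was 0.27 higher in the expanded leaves, and its part in the differences was not tested.

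The step from apex to expanded leaf in experiment 2 gave a similar count. There 39 genes were higher and 1 lower in expanded leaves (30 arrays) than in apices of days 4, 9 and 11 (18 arrays), against 40.9% higher and 42.5% lower of all probe sets, with a median of +0.48. These counts were the same with the nuclear length trend taken out. All 10 NDH genes were higher. The largest rises were those of ndhJ (+3.16 ± 0.19, 8.93-fold), ndhK (+1.59 ± 0.07) and ndhA, for a membrane subunit (+1.52 ± 0.09), and ndhA was the member without overlap, against 3981 of all 19324 probe sets. Apices read 4.88, 5.80 and 8.66 for ndhJ at the lowest, median and highest over all 30 arrays, so that a few apex arrays reach into the range of expanded leaves.

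Other members rose by less. The rise of rbcL was 0.97 and that of psbA 0.79, while petG fell by 0.46 ± 0.17 (adjusted p = 0.0088), and petL, petN and psbN were not called. The 3 nuclear NDH genes rose with a median of +2.81, and of the 20 expression machinery genes 6 were higher and 5 lower. CLV3 was 1.60 lower and RCA 0.87 higher in expanded leaves than in apices, and their part in these differences was not tested.

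**Figure D4:**
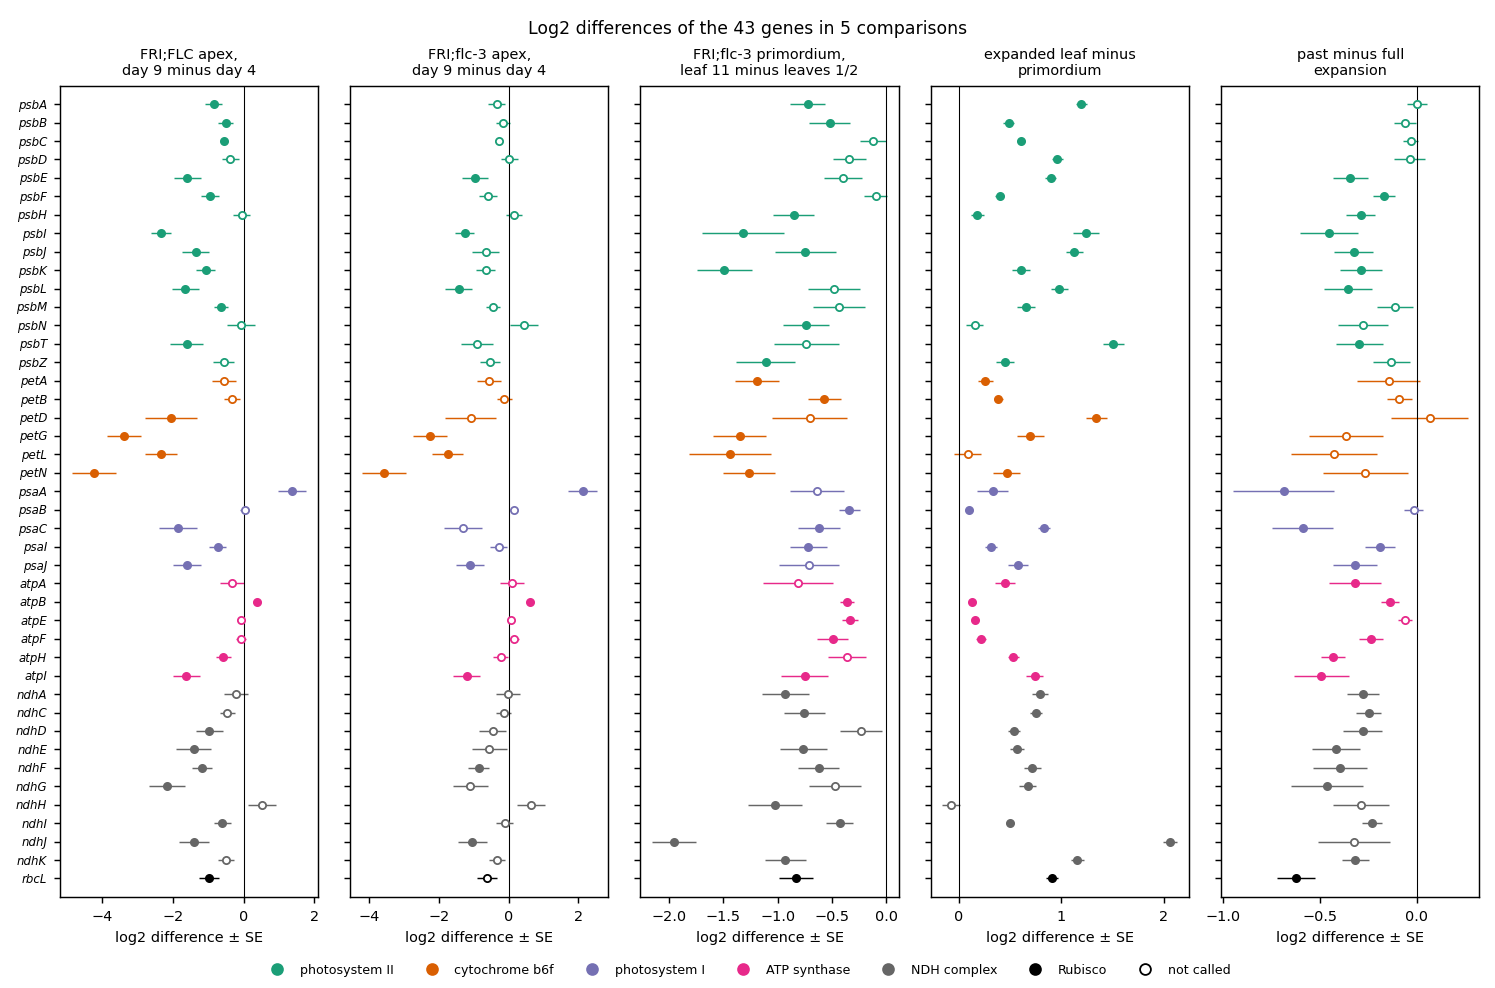
Log2 difference with its standard error of the 43 genes, ordered by complex, in 5 comparisons. Among them are apices from day 4 to day 9 in FRI;FLC and primordia of leaves 1/2 to leaf 11 in FRI;flc-3. Primordium to expanded leaf and past full expansion are also among them. Filled points passed an adjusted p of 0.05. Of the named comparisons, apices had 27 lower and 2 higher genes and primordia 29 lower. There were 40 higher on expansion and 26 lower past full expansion.

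Among fully expanded leaves some members were higher and others lower with position, and neither share exceeded that of the array. From leaves 1/2 to leaf 9, over both genotypes and experiments, 10 members were higher and 7 lower, against 28.3% higher and 28.2% lower of all probe sets, and their median was +0.05. Leaves 1/2 were taken at 14 days and leaf 9 between 30 and 33 days, so position and plant age cannot be told apart. The clearest fall was that of rbcL. Its 12 arrays of leaves 1/2 lay between 11.53 and 12.21 and the 12 of leaf 9 between 9.94 and 11.28, without overlap (-1.18 ± 0.12, adjusted p = 6.8e-13). It was the only member whose positions did not overlap, against 743 of all 19324 probe sets.

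Photosystem I genes went in opposite directions: psaA fell by 1.40 ± 0.32 (adjusted p = 0.00015) and psaC rose by 0.62 (adjusted p = 0.0046). In experiment 1 alone neither was called, at -0.53 (adjusted p = 0.39) and 0.38 (adjusted p = 0.29), and psaC was at 0.02 with the nuclear length trend taken out and at 0.56 (adjusted p = 0.066) without the arrays of replicate number 2. The other large changes were the fall of psbN (-0.69) and the rises of petD (+1.17 ± 0.24) and petN (+0.73), while psbA rose by 0.18 (adjusted p = 0.011). With the nuclear length trend taken out the count turned to 1 higher and 25 lower, with rbcL at -1.30, psbA at -0.02 and petN at -0.14. In experiment 1 alone 0 members were higher, and without the arrays of replicate number 2 or number 3, 2 and 6 were.

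The genotypes differed by little in expanded leaves. In experiment 1, leaves 3, 5, 7 and 9 were taken at 21, 24, 26 and 30 days in FRI;flc-3. In FRI;FLC they were taken at 23, 26, 29 and 33 days. Leaf 9 of experiment 2 was taken at 32 days in FRI;flc-3 and at 33 in FRI;FLC. Genotype and plant age cannot be told apart in these leaves. Over leaves 1/2 to 9, 14 members were higher and 1 lower in FRI;flc-3 than in FRI;FLC, against 16.5% higher and 17.5% lower of all probe sets, with a median of +0.08, and with the nuclear length trend taken out 26 were higher and 0 lower. The largest differences were those of psaA (+0.71 ± 0.20, adjusted p = 0.0043), ndhH (+0.39 ± 0.11), psbN (+0.34 ± 0.10) and, in the other direction, petG (-0.37 ± 0.15, adjusted p = 0.045). In experiment 1 alone psaA (adjusted p = 0.25), ndhH (0.35) and psbN (0.073) were not called, and psbN was not called in experiment 2 alone (0.075). Calls were also lost without the arrays of replicate number 2 (ndhH and psbN) or number 3 (psaA and ndhH). For petG the difference was not called in either experiment alone, without the arrays of replicate number 1 (-0.26, adjusted p = 0.34) or number 3 (-0.37, adjusted p = 0.10), or with quantile normalization (adjusted p = 0.052), and it was -0.04 with the nuclear length trend taken out. The gene rbcL was 0.24 ± 0.08 higher (adjusted p = 0.011), while psbA (+0.04) and psbC (+0.02) were not called. The call of rbcL was lost in experiment 2 alone (adjusted p = 0.33) and without the arrays of replicate number 2 (0.16) or number 3 (0.091). A test of the difference between the experiments called 0 of the 43 (limma, 0 at an unadjusted p under 0.05, with 3.21% of all probe sets called). Leaving out the arrays of replicate number 2 left 3 higher genes and leaving out those of number 3 left 2, and in experiments 1 and 2 alone 3 and 5 were higher.

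Leaf 11 compares a cauline leaf of FRI;flc-3 with a rosette leaf of FRI;FLC. These were taken at 30 and 34 days in experiment 1 and at 32 and 33 days in experiment 2. Genotype, leaf type and plant age cannot be told apart there. In FRI;flc-3 2 members were higher and 1 lower (4.65% and 2.33%), below the 19.7% higher and 18.6% lower of all probe sets. They were psbZ, a small photosystem II subunit (+0.61 ± 0.16, adjusted p = 0.0017), psbN (+0.59 ± 0.22, adjusted p = 0.031) and atpB (-0.21 ± 0.08, adjusted p = 0.042). With the nuclear length trend taken out psbZ (+0.25, adjusted p = 0.54) and psbN (+0.17, adjusted p = 0.74) were not called. In experiment 2 alone atpB was at -0.0018 (adjusted p = 0.99) and psbZ was not called (adjusted p = 0.096). The call of psbN was lost in each experiment alone (adjusted p = 0.24 and 0.076), and that of atpB with each array centred on its median. Neither rbcL (+0.09) nor any NDH or cytochrome b6f gene was called. In experiment 1 alone 11 members were higher, in experiment 2 alone 1 was, and without the arrays of replicate number 1 or number 2, 1 and 0 were.

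The experiments themselves set the members apart. In experiment 2 19 were higher and 9 lower than in experiment 1, over the same positions and genotypes, against 20% higher and 28.1% lower of all probe sets. The largest differences were those of petD (-1.01 ± 0.15), psaC (-0.90 ± 0.12) and psbN (-0.67) on one side and psbT (+0.78 ± 0.09), psbI (+0.58) and psbK (+0.57) on the other. Without the arrays of replicate number 3, 12 were higher, and with the nuclear length trend taken out 4 were higher and 11 lower. For rbcL the difference was -0.02 and not called. Primordia come from experiment 1 and apices from experiment 2, so the 2 organs were not tested against each other. Where their values are set side by side, organ and experiment cannot be told apart.

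**Figure D5:**
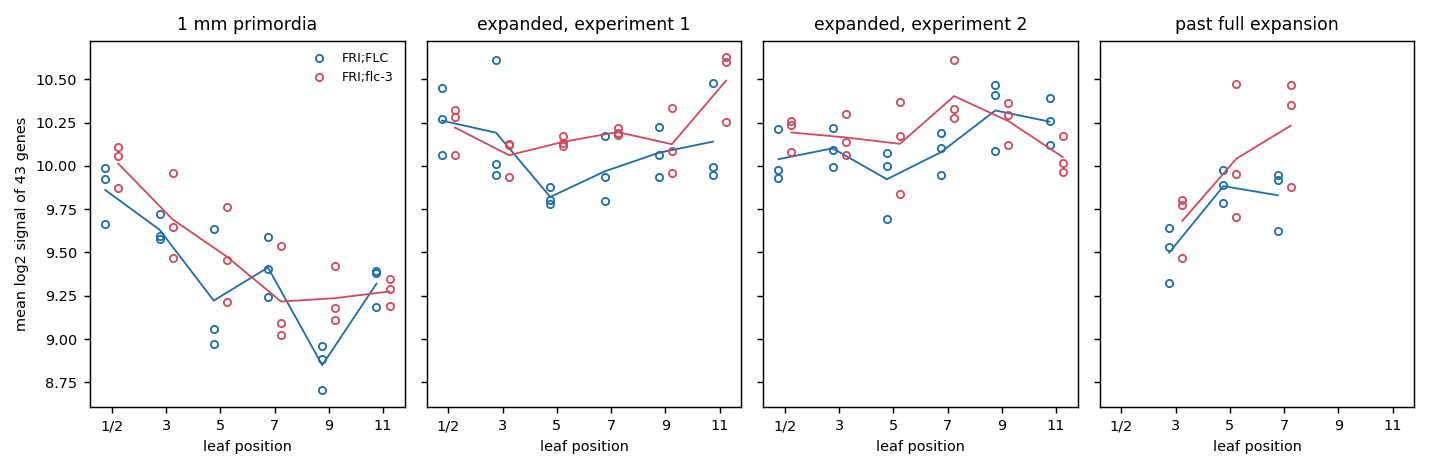
Mean log2 signal of the 43 genes on each array against leaf position, for primordia, expanded leaves of experiments 1 and 2, and leaves past full expansion, with a point for each array and a line for each genotype. Group means of primordia go from 9.86 and 10.01 at leaves 1/2 to 9.32 and 9.27 at leaf 11, and leaf 3 past full expansion, at 9.50 and 9.68, lies lowest among the oldest leaves.

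After full expansion the signal dropped again. In leaves 3, 5 and 7 of both genotypes 26 members were lower and 0 higher past full expansion than at full expansion in experiment 2, against 21.9% lower and 21.5% higher of all probe sets, and the median was -0.29. Lower were 8 of 10 NDH genes, 5 of 6 ATP synthase genes, 4 of 5 photosystem I genes, 8 of 15 photosystem II genes and rbcL, and of the 6 cytochrome b6f genes 0 were called. Without the arrays of replicate number 2, 2 were lower, so this count rests on them, while with the nuclear length trend taken out 31 were lower and 0 higher.

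The fall of rbcL was 0.62 ± 0.10 (adjusted p = 3.3e-07), from a median of 11.16 over all expanded leaves to 10.47, with overlap. The other largest falls were those of psaA (-0.69 ± 0.26, adjusted p = 0.028), psaC (-0.59 ± 0.16, adjusted p = 0.0014) and atpI, for a membrane subunit of the ATP synthase (-0.49). The reaction centre gene psbA stood at 0.00 (adjusted p = 0.96) and psbC at -0.03. Averaged over the 43 genes, leaf 3 dropped from 10.10 to 9.50 with functional FLC and from 10.16 to 9.68 with the flc-3 allele, leaf 5 from 9.92 to 9.88 and from 10.13 to 10.04, and leaf 7 from 10.08 to 9.83 and from 10.40 to 10.23. The drop was thus larger in leaf 3, the leaf that was longest past expansion, but a difference between positions was not tested.

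The few measured nuclear genes of these complexes went both ways. The 3 Calvin cycle genes were lower, PRK by 0.60, as were both nuclear genes of each photosystem, and NdhL and NdhN fell by 0.61 and 0.66. In contrast PGRL1B was 0.26 higher and ATPC2 0.31 higher, while ATPC1 was lower, at -0.17. Of the 20 plastid expression genes 4 were lower and 0 higher. For psaA the arrays past full expansion read 8.44, 8.54 and 9.57 in leaf 3, 5.51, 6.59 and 6.80 in leaf 5 and 4.94, 6.47 and 6.64 in leaf 7 of FRI;FLC. Leaf 3 of that genotype is thus the highest, without overlap, unlike the mean of the 43 genes.

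Over the groups with at least 2 arrays most members varied together, and psaA did not. Across 52 group means the 903 pairs of members had a median correlation of 0.65, with 34 pairs negative, and the 56 pairs within a transcription unit had 0.78, with 0 negative. The same was seen among replicates, where the deviations of arrays from their group means had a median correlation of 0.41 over all pairs and of 0.55 within units. Pairs of the same complex had 0.77 across groups and pairs of different complexes 0.62. These are descriptions, since all points share arrays and the same scaling.

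Neighbouring genes of one unit were the closest pairs in several cases. Among them were ndhJ with ndhK (r = 0.98 across groups) and psbJ with psbL (0.96). Genes of separate units could be as close, as psbA with psbC (0.97), and petL with petN (0.91). The gene psaA correlated with the mean of all other members at 0.08, was most like its unit partner psaB (0.84) and least like petN (-0.38). The lowest correlation of all pairs, -0.40, was that of psbM with psbN, genes for a small photosystem II subunit and for the assembly factor.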

How the data were processed

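Array signal was available for 156 arrays, as log2 values per probe set that the authors had deposited after bringing the arrays to a common scale. The submitters' processing notes list GCRMA and MAS5 without versions, and which of them gave these values is not given in the sources used here. All 19324 probe sets were used without rescaling or filter. Gene names came from the array's annotation table, which gave 1 gene for 10918 probe sets, several for 407 and none for 7999, and gene lengths were taken from the TAIR10.1 assembly.

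Linear models with 1 coefficient per group were fitted in R 4.3.3 with limma 3.58.1 to all arrays of an organ, or of an experiment where organs were compared. Contrasts were tested two-sided (eBayes with trend), with Benjamini-Hochberg adjustment over all probe sets and a threshold of 0.05. The lone array and the pair of arrays of day 6 share the spread of the other groups in the fit. On simulated data of the 19324 probe sets the fit recovered 53% of 2-fold and 94% of 4-fold changes for apices from day 4 to day 9 in FRI;FLC, and 95% and 100% past full expansion. A simulated probe set had the same mean in all groups and independent noise, and 100 were changed by each size. In the deposited values 9384 were called from day 4 to day 9 in FRI;FLC, so these rates hold for the simulated setting only. No count of molecules lies behind an array value, so the number of arrays limits the precision.

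The members, the gene lists and the tests were chosen with earlier results of these data known. Genes named with values were rbcL and psbA throughout, in each complex the member with the highest mean signal (psbC, petB, psaB, atpE and ndhI), and in each comparison the 3 largest called differences in each direction. Other members named, such as ndhJ and petN in some comparisons and those not called, were chosen after their values were seen. Of the marker lists, 1 meristem gene (CLV3) and 1 mesophyll gene (RCA) were among the genes named here. FLC was not analysed here, so the genotype labels were not checked on it. Other settings were quantile normalization, centring each array on its median, array weights, a prior without trend, only probe sets above the median signal, the replicate number as a block, removal of the trend with gene length, each experiment alone, other controls for the mimic line, leaving out replicates, and, added after the data were seen, leaving out the day 6 arrays.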

Additional observations from a re-analysis of the deposited data

Results flagged for a closer look

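Among the 43 genes the interaction of leaf position and genotype in primordia was called for 2. Of all probe sets 11.1% had a positive and 8.46% a negative interaction. The interaction is a difference between genotypes under the same contrast that was itself tested (limma interaction term). At leaf 11 genotype and leaf type cannot be told apart. For rbcL the fall from leaves 1/2 to leaf 11 was smaller in FRI;flc-3 than in FRI;FLC, with an interaction of 0.785 on the log2 scale (adjusted p = 0.012, all 3 leaf 11 arrays of FRI;flc-3 above all 3 of FRI;FLC). For petG it was larger in FRI;flc-3, with an interaction of -1.01 (adjusted p = 0.034), on signals near the low end of the scale. Neither call held in every setting. The call of rbcL was lost without the arrays of replicate number 1 or number 3. The call of petG was lost without those of number 1 or number 2. It was also lost with a prior without trend and with the nuclear length trend taken out. No sample of a group was tested as an outlier, since groups held 3 arrays at most.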

How the results depend on the processing

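Counts of called members in the direction given in the report were recomputed under each setting. Of 216 such counts 150 stayed within 1.5 times the value of the report, 55 moved further, and in 11 the larger direction turned. Comparisons follow here as apices of FRI;FLC from day 4 to 9, 9 to 14 and 14 to 21, apices of FRI;flc-3 from day 4 to 9 and 9 to 11, the mimic line, and primordia and expanded leaves. With the nuclear length trend removed the lower genes were 9 (turned), 2 (day 9 to 14), 2 (FRI;flc-3 to day 9, turned), 0 (to day 11), 3 (mimic, turned) and 0 (primordium position by genotype, as in all counts of that test below), and the higher genes were 15 (primordium genotype), 16 (primordium to expanded leaf, turned), 26 (expanded leaf genotype), 1 (expanded leaf position, turned), 4 (experiment, turned) and 0 (leaf 11, turned). Quantile normalization gave 2 lower genes from day 9 to 14 and 2 for position by genotype. Array weights gave 7 from day 9 to 14, 1 from day 14 to 21, 16 from day 9 to 11 in FRI;flc-3, 4 for the mimic, 3 for position by genotype and 3 for leaf 11 (turned). Without the day 6 arrays, a setting added after the data were seen, 4 were lower from day 9 to 14 and 6 from day 9 to 11. Median centring gave 17 and 1 for FRI;flc-3 to days 9 and 11, 2 for the primordium genotype, 2 for position by genotype and 8 for the expanded leaf genotype. A prior without trend gave 1 from day 9 to 11, 3 for the primordium genotype and 0 for position by genotype. On bright probe sets the mimic had 5 and position by genotype 0. The mimic count was 2 without FRI;FLC replicate 1, 17 without FRI;FLC replicate 2 and 20 against days 4 and 9. Experiment 1 alone gave 3 (genotype), 0 (position, turned) and 11 (leaf 11), and experiment 2 alone 5 (genotype) and 1 (leaf 11).

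Replicate numbers recur across groups, but arrays of the same number had deviations with a median correlation of 0.08 in apices, -0.01 in primordia and 0.01 in leaves, so they were not taken as pairs. With the replicate number as a block, 5 genes were lower from day 9 to 11 in FRI;flc-3, and no other count moved by over 1.5 times. Leaving out each replicate in turn gave, in the same order, 11 to 29, 0 to 2, 0 to 0, 6 to 10 and 1 to 4 lower genes in apices, 0 to 0 for the tests of age by genotype and of genotype, and 2 to 23 for the mimic. In primordia it gave 2 to 4 for genotype, 9 to 28 and 21 to 25 for position, and 0 to 4 for position by genotype. It gave 38 to 40 for primordium to expanded leaf and 31 to 38 for apex to expanded leaf. In leaves it gave 2 to 17 for genotype, 0 to 0 for genotype by experiment, 2 to 7 for position (turned without replicate 2, at 2), 12 to 18 for experiment, 0 to 2 for leaf 11 (turned without replicate 2, at 0) and 2 to 25 past full expansion.

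Of 73 called results of single genes 33 kept their call under every setting. Signs turned for psaA (-0.70), atpF (-0.53) and atpB (-0.00595) in the mimic line against days 4 and 9. They also turned for psbT on expansion (-0.0564) and for psbA (-0.0231) and petN (-0.14) with expanded leaf position when the length trend was removed, and for petN with position in experiment 1 alone (-0.21). The causes were not tested. Signal near the low end of the scale limits petG, ndhF and the marker CLV3.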
